A study of Mus musculus with 4 samples.

Results

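The 9 genes Ubr1, Ubr2, Ubr3, Ubr4, Huwe1, Herc1, Herc2, Birc6 and Mycbp2 encode very large ubiquitin ligases, proteins that attach ubiquitin to other proteins and so mark them for destruction or change their activity. Their positions were found as the lines of a deposited table of RNA positions that kept cytosine after bisulfite whose gene labels include one of these names, which gave 2425 of 506952 listed positions. The genes were selected on the number of positions that this same table lists for them. The table was made from bisulfite-converted poly(A) RNA of cultured mouse acute myeloid leukemia cells that carry NRAS and AE9a, a shortened AML1-ETO fusion protein. The series has 2 libraries of Tet2 KO cells and 2 of WT cells, all grown with SCF, IL-3, IL-6, G418 and puromycin. Tet2 is a dioxygenase that oxidises 5-methylcytosine, and how it was deleted is not given in the labels. By its name the table holds positions that were significant and unique to the KO. It has 0 columns with WT values and 0 for a single library, so the values below describe the Tet2 KO cells and no difference from WT was tested. The labels do not say whether the replicates were separate cultures.

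A ubiquitin ligase chooses the protein to be modified, and the members do so in several ways. UBR proteins carry a UBR box, a zinc-binding fold that in Ubr1, Ubr2 and Ubr4 recognises the exposed first residue of a protein (the N-degron pathway). HECT ligases such as Huwe1, Herc1 and Herc2 first take ubiquitin onto a cysteine of their own, whereas Birc6 and Mycbp2 use other arrangements, described with their values. Bisulfite turns unmethylated cytosine into uracil, which is read as T, whereas 5-methylcytosine stays C. The level is the number of reads that still showed C over the number of reads used, and the table holds levels of at least 0.2 at positions covered by at least 10 reads.

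The reference base could be looked up where a listed position fell in a RefSeq promoter window or miRNA hairpin of build GRCm38.p6, and it touches every result that follows. Of 6037 plus-strand positions in such sequence, 3138 (52.0%, exact 95% interval 50.7 to 53.2) were a C in the genome, 1811 were a G, 1088 an A and 0 a T. One base to the left, T stood at 1077 of 6079 positions and one base to the right at 1133 of 6002, so the absence of T belongs to the coordinates as deposited. A level at a position that is not a C in the genome cannot be read as methylation of that base. In the members, 6 listed positions lay in such sequence, 1 in Ubr4 and 5 in Huwe1. Of these, 5 were a C and 1, in Huwe1, an A. The 30-base stretches below, read 5′ to 3′ on the plus strand from RefSeq, show 4 of them in capitals.
Huwe1: gatagttcctacggcgcAtgcgggagCCgg
Ubr4: gacgaaagatggcgacgagcggcggCgaag

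The Huwe1 stretch covers bases 1 to 30 after a RefSeq start site (chrX:151803282-151803311) and holds 8 cytosines, of which 2 were listed. The A, at base 18, had 13 unconverted of 15 reads used (level 0.867, Wilson 95% interval 0.621 to 0.963). The neighbouring C positions at bases 27 and 28 had 9 of 10 and 7 of 12 reads (levels 0.9 and 0.583). The listed A thus had a level between those of the listed C positions beside it. A further 2 C positions, at bases 48 and 50 and so past the printed stretch, were called in both KO replicates with the authors' mean levels of 0.666 and 0.823. The Ubr4 stretch covers bases 21 to 50 (chr4:139380679-139380708) and holds 6 cytosines, of which 1 was listed, with 9 of 11 reads unconverted (0.818, Wilson interval 0.523 to 0.949). The first 50 bases after the start of Ubr3, Herc1 and Birc6, and of both start sites given for Herc2, held 0 listed positions, although they hold between 7 and 25 cytosines. In none of these 6 members was a position listed in the 250 bases before the start.

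The reads used for the level separated the reference bases. Among plus-strand positions called in 1 replicate, 2001 of 2001 with fewer than 80% of the covering reads used were a C in the genome, which allows a share of other bases of up to 0.150%, for counting error only. With 80% or more used, 547 of 3174 were a C (17.2%, exact interval 15.9 to 18.6). Among positions called in both replicates, 590 of 862 were a C (68.4%, exact interval 65.2 to 71.5). In the plus-strand members 711 of 2048 such positions (34.7%) were under 80%, against 32.2% of all plus-strand positions called in 1 replicate. The share was 40.5% in Ubr4, 39.4% in Huwe1, 34.5% in Birc6, 30.5% in Herc2, 29.6% in Ubr3 and 29.0% in Herc1. The reference base is thus known for 6 member positions, and for the others it was not analysed here. The median level in the plus-strand members was 0.5 both under 80% and at 80% or more.

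**Figure D1:**
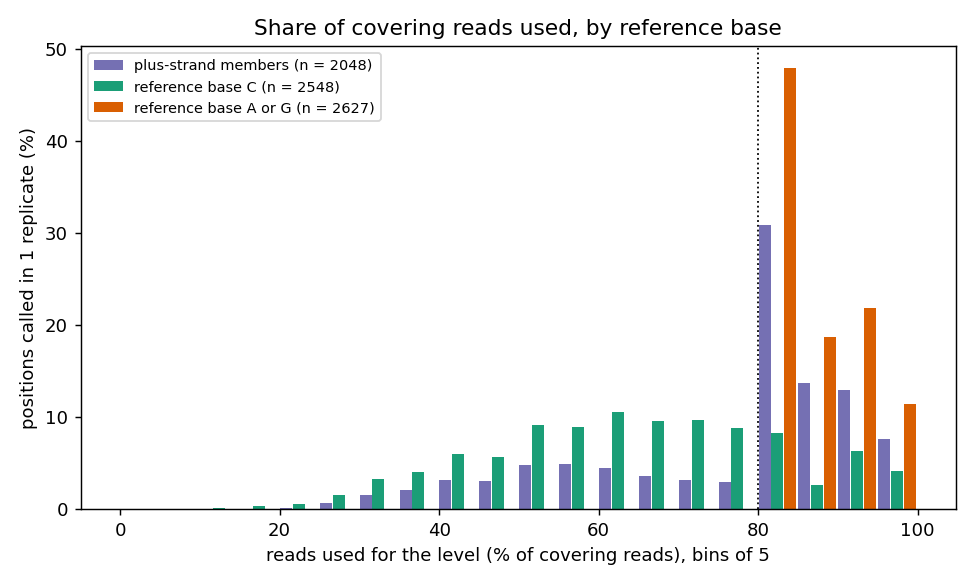
Reads used for the level as a percentage of covering reads (x axis, bins of 5) against the percentage of positions called in 1 replicate (y axis), for 2048 positions of the plus-strand members and for positions with a known reference base. Positions with reference base A or G (n = 2627) all lie at or above the dotted line at 80%, whereas positions with reference base C (n = 2548) lie on both sides, as do the members.

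Listed positions were found in 9 of 9 members, where 34.2% of 21900 protein-coding genes and 38.2% of those at least as long as the shortest member had any; the genes were chosen for having positions, so nothing is read from that count. The members split by strand. Ubr3, Ubr4, Huwe1, Herc1, Herc2 and Birc6 held 2419 positions, all on the plus strand, and Ubr1, Ubr2 and Mycbp2 held 6, all on the minus strand. The plus-strand share was 99.8%, against 99.1% of all listed positions. The lowest plus-strand member, Ubr3, had 196 positions and the highest minus-strand member, Ubr2, had 3. The genes were chosen on these counts, so nothing is read from the gap. With at least 50 covering reads the groups overlapped, as Herc1 then had 0 positions and Ubr3 and Herc2 1 each, against 2 in Ubr2. Over all protein-coding genes with a position, plus-strand genes had a median of 71 (quartiles 38 and 116). Minus-strand genes had a median of 1 (quartiles 1 and 2).

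The minus-strand members include both classical N-recognins, the ligases that bind N-degrons. Ubr1 had a single position (chromosome 2, 120882263), with 3 of 11 reads unconverted (level 0.273, Wilson interval 0.0975 to 0.566). Ubr2, its close paralog, which is needed for meiosis in male mice, had 3 positions on chromosome 17. At 46966164 it had 5 of 21 reads unconverted (0.238) among 102 covering, and at 46974037 it had 3 of 15 (0.2) among 78 covering. These were among the most deeply covered positions of all members, yet only 20.6% and 19.2% of the covering reads were used. Its last position, 46929134, had 2 of 10 reads. Mycbp2, which passes ubiquitin through a relay of cysteines to threonine and is known for shaping nerve terminals, had 2 positions on chromosome 14, with 2 of 10 reads (0.2) at 103135237 and 4 of 12 (0.333) at 103222994. All 6 positions were called in 1 replicate, where 10.9% of all minus-strand positions were called in both. Their median level was 0.219, against 0.231 for all minus-strand positions. Of the 6 positions, 5 used under 80% of the reads, as did 79.7% of all minus-strand positions called in 1 replicate. Among minus-strand positions with a known reference base, 132 of 146 were a C on that strand.

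**Figure D2:**
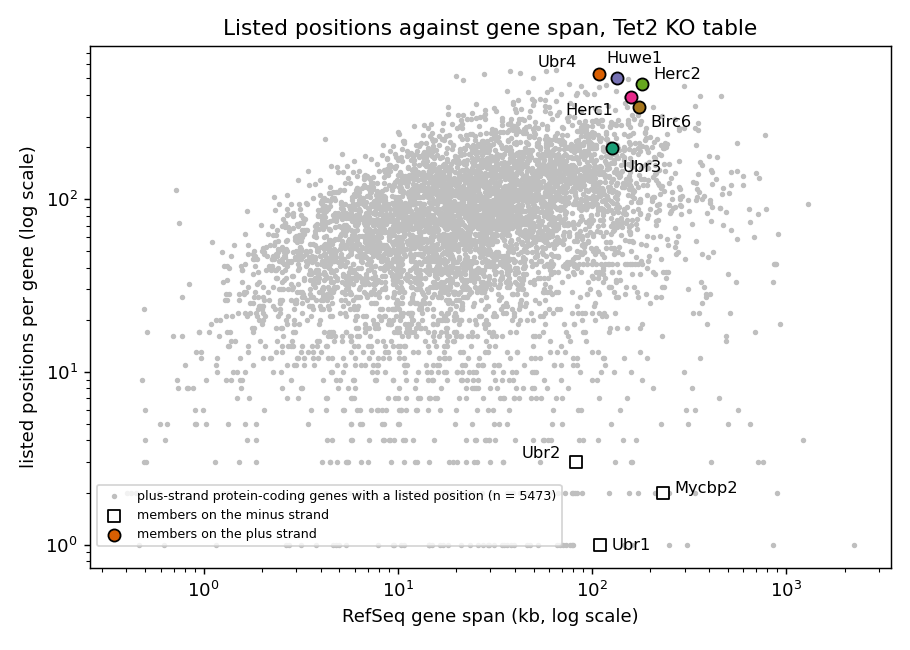
Listed positions per gene (y axis, log scale) against RefSeq gene span in kb (x axis, log scale) for the 9 members and for 5473 plus-strand protein-coding genes with a position (grey; the plus-strand members are included). The 6 plus-strand members (circles) hold 196 to 530 positions and all but Ubr3 lie near the upper edge of the grey points of their span. Their place there follows from the choice of genes by count. The 3 minus-strand members (squares) hold 1 to 3.

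Counts in the plus-strand members ran from 196 in Ubr3 to 530 in Ubr4, and these counts are what the genes were chosen for. Ubr4, a calmodulin-binding N-recognin, had 530 positions over a span of 108.9 kb on chromosome 4 (139380659 to 139489533, mm10), or 4.87 per kb. Huwe1, a HECT ligase whose known substrates include Mcl1, p53 and core histones, had 502 over 134.6 kb on chromosome X (151800785 to 151935417), or 3.73 per kb. These densities were the highest of the 9. Herc2, which carries RCC1-like and HECT domains and acts with Rnf8 at DNA breaks, had 460 positions over 181.7 kb on chromosome 7 (56050124 to 56231800), or 2.53 per kb. Herc1, with the same kinds of domain, had 389 over 158.4 kb on chromosome 9 (66350412 to 66508775), or 2.46 per kb. Herc1 and Herc2 were thus close to each other in density. Birc6, an inhibitor of apoptosis protein that also carries its own ubiquitin-conjugating domain, had 342 over 175.1 kb on chromosome 17 (74528254 to 74703356), or 1.95 per kb. Ubr3, which has a UBR box but was reported not to bind the classical N-degrons, had 196 over 127.1 kb on chromosome 2 (69896932 to 70024010), or 1.54 per kb.

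The median density was 2.49 per kb over the 6 plus-strand members and 1.95 per kb over all 9, against a median of 2.98 per kb over all plus-strand genes with a position, whose median span was 23.1 kb. Among the 324 other plus-strand genes with a position and a span in the range of these 6 members, the median was 0.736 per kb (quartiles 0.370 and 1.24), and the median count was 100. In that set 0 genes had more positions than Ubr4 or Huwe1, 2 had more than Herc2, 5 more than Herc1, 8 more than Birc6 and 55 more than Ubr3. These ranks and densities rest on the counts for which the members were chosen, so nothing is read from them. Of the 2 genes nearest in span to each member, Mtor, which encodes a growth-regulating kinase, had the most positions, 324 over 109.1 kb (2.97 per kb). It was second nearest to Ubr4, after Vegfc with 37 over 108.9 kb (0.340 per kb). Dip2b, nearest to Herc2, had 202 over 181.8 kb. The other nearest genes, which were Hace1, Cdk19, Tfdp2, Pcdhga7, Ccdc34, Asap2, Abcb1a, Zcchc7 and Stim1, had between 9 and 138 positions. Transcript length and expression were not available, so these densities stand for neither.

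Positions stood in short blocks separated by long stretches with none. With a gap of more than 200 nt as the boundary, Ubr4 had 94 blocks that spanned 9642 bp, or 8.86% of the gene. Huwe1 had 74 blocks over 6.04% of its span, Herc1 65 over 4.13%, Herc2 73 over 3.91%, Birc6 65 over 3.34% and Ubr3 32 over 2.84%. Within blocks the density ran from 54.4 positions per kb in Ubr3 and 55.0 in Ubr4 to 64.7 in Herc2. The boundary of 200 nt itself limits how low this density can be. How much of a gene the blocks cover depends on the counts for which the genes were chosen. Blocks were not computed for other genes, so nothing is read from either range. Among the 6 plus-strand members the longest stretch between listed positions was 28.4 kb, in Huwe1, and the shortest such maximum 10.0 kb, in Ubr4. Another listed position lay within 10 nt for 70.2% of the plus-strand members' positions, against 70.6% of all plus-strand positions. Exons and introns were not annotated here.

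Along the gene, the 6 members differed in where their positions lay. Of their positions together, 17.4% fell in the last decile of the span, the last of 10 equal parts (exact interval 15.9 to 19.0), against 29.0% of all pairs of a plus-strand gene and a position. Taken gene by gene, the median share was 16.9% in the 6 members, 39.6% in the 324 other genes in their range of span and 23.9% in all plus-strand genes with a position. Ubr3 had 82 of its 196 positions there (41.8%, exact interval 34.8 to 49.1), the highest of the 6 and close to the median for genes of like span. The Ubr3 share was 24.2% of 33 positions with at least 30 covering reads and 16.1% of 31 positions with 20 or more reads used. The shares over other genes were not restricted in these ways, so these 2 values are not set against them. Herc2 had 19.6%, Huwe1 17.5%, Herc1 16.2% and Birc6 14.3%, with exact intervals that overlap one another, and differences among these shares were not tested. Ubr4 had 49 of 530 (9.25%, interval 6.92 to 12.0), the lowest share, and its fullest decile was the fifth, with 101 positions. The intervals treat positions as independent, although neighbours share reads, and the shares are not corrected for coverage along the transcript. Huwe1 had its fullest decile in the ninth, with 130 positions, and 0 in the second. Herc1 had 82 in the eighth and only 2 in the first, whereas Herc2 had 90 in each of the last 2 deciles and 4 in the first. Birc6 was fullest in the fifth, with 59. Within 5 kb of the end of the span lay 49 positions of Ubr3, 57 of Herc2 and 34 of Huwe1, but 17 of Herc1, 12 of Ubr4 and 2 of Birc6.

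**Figure D3:**
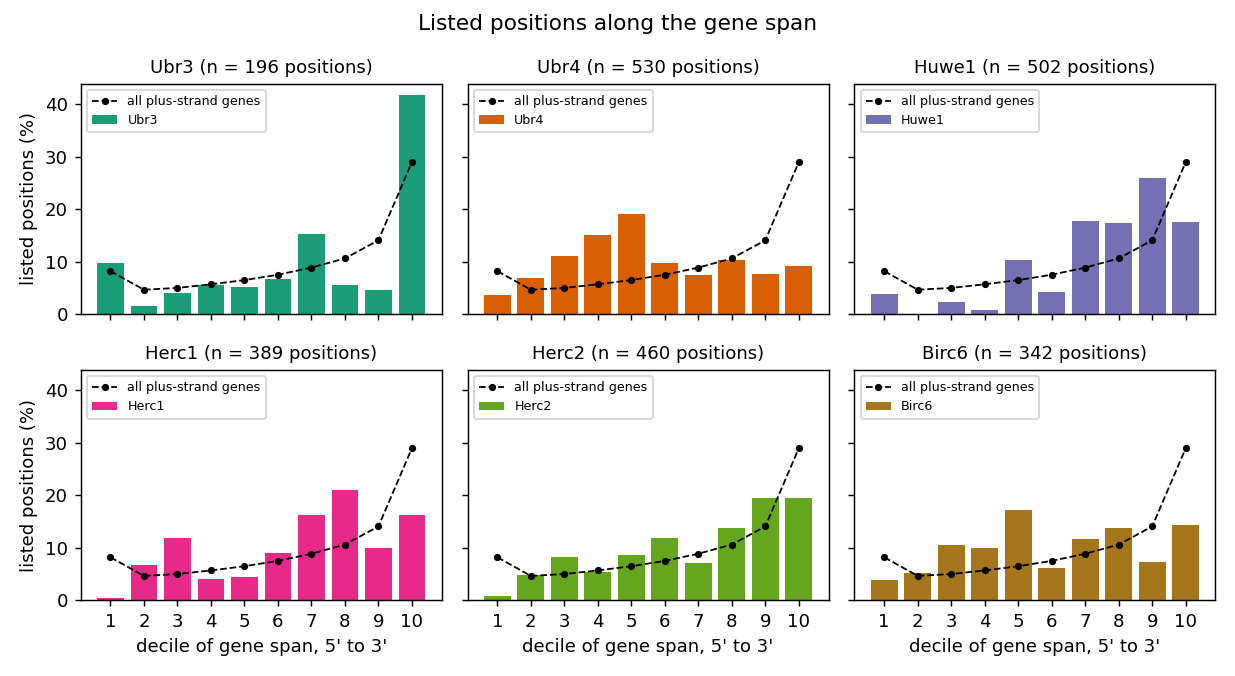
Percentage of each plus-strand member's listed positions (bars, y axis) in each decile (10 equal parts) of the gene span from 5′ to 3′ (x axis), with the percentage over all plus-strand genes as a dashed line. Ubr3 reaches 41.8% in the last decile, above the line at 29.0%, whereas the other members lie below it there; the median for other genes of like span was 39.6%. Ubr4 peaks in the fifth decile.

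In Huwe1, Ubr4, Ubr3, Birc6 and Herc1 the block nearest the 5′ end had a higher median level than the gene as a whole, a difference that was not tested. In Huwe1 the first block (151803299 to 151803542) held 10 positions with a median level of 0.867 at a median coverage of 18.5 reads. Its first position, 151803299, is the listed A shown above, with a level of 0.867 that cannot be read as methylation of that base. In Ubr4 the first block (139380704 to 139380847) held 18 with a median of 0.714, in Ubr3 (69897390 to 69897825) 19 with 0.7, and in Birc6 (74528697 to 74528800) 13 with 0.636. The medians over these whole genes were 0.5, 0.524, 0.5 and 0.5. Herc1 had only 2 positions in its first block, with levels of 0.375 and 0.7 (median 0.538), and a median of 0.5 over the whole gene. Herc2 had its first position 17.9 kb into the span, in a block of 4 with a median of 0.349. Among positions of these first blocks called in 1 replicate, 11 of 17 in Ubr4 and 8 of 12 in Birc6 used under 80% of the reads. It was 4 of 8 in Huwe1, 5 of 16 in Ubr3, 1 of 2 in Herc1 and 0 of 4 in Herc2. The rest used 80% or more, the range in which 17.2% of checked positions were a C. Over the 6 members together the first decile had a median of 0.688 and the later deciles lay between 0.478 and 0.533. All plus-strand genes showed the like, with 0.636 in the first decile and 0.5 to 0.538 in the later ones.

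**Figure D4:**
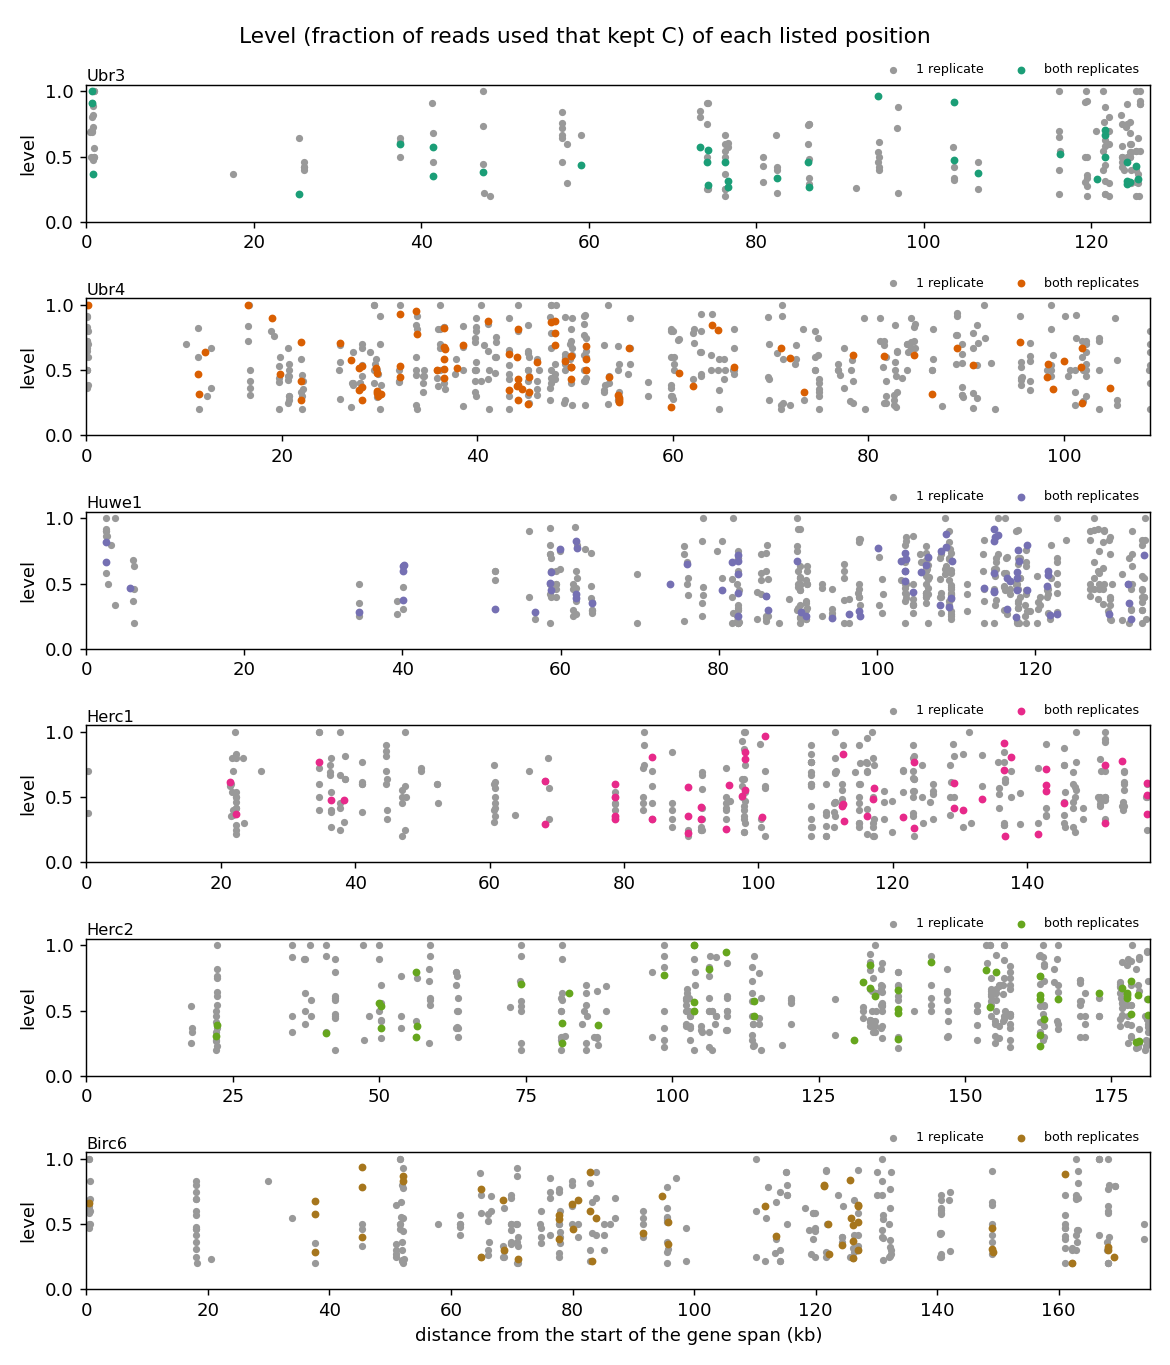
Level of every listed position (y axis, fraction of reads used that kept C) against distance from the start of the gene span in kb (x axis) for the 6 plus-strand members; grey points were called in 1 KO replicate and coloured points in both. Points stand in narrow columns separated by empty stretches, the longest of 28.4 kb in Huwe1, and positions called in both replicates are spread along each gene.

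The bulk of the levels was alike in the 6 genes. Herc2 had a median of 0.545, with its quartiles at 0.4 and 0.7, and Ubr4 a median of 0.524 with the same quartiles. Ubr3, Huwe1, Herc1 and Birc6 each had a median of 0.5, with lower quartiles from 0.344 in Birc6 to 0.375 in Herc1 and upper quartiles from 0.667 in Huwe1 to 0.7. The interquartile ranges of all 6 overlapped and included the median of all plus-strand positions, 0.531. Over the 9 members the median was 0.5. A level of 1 was listed at 22 positions of Herc2, 17 of Ubr4, 13 of Herc1, 11 each of Huwe1 and Birc6 and 9 of Ubr3, together 3.43% of their positions, against 3.98% of all plus-strand positions.

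Coverage was modest in every plus-strand member. The median number of covering reads was 20 in Huwe1, 19.5 in Ubr4, 19 in Ubr3, 18 in Birc6, 17 in Herc2 and 16 in Herc1, against 17 for all plus-strand positions, and 18 over the 9 members. The deepest position had 79 reads in Huwe1, 68 in Ubr4, 57 in Herc2 and Birc6, 51 in Ubr3 and 40 in Herc1. At positions called in 1 replicate a median of 12 reads went into the level, so a single level has a wide counting interval, which does not cover repeated copies of a molecule.

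**Figure D5:**
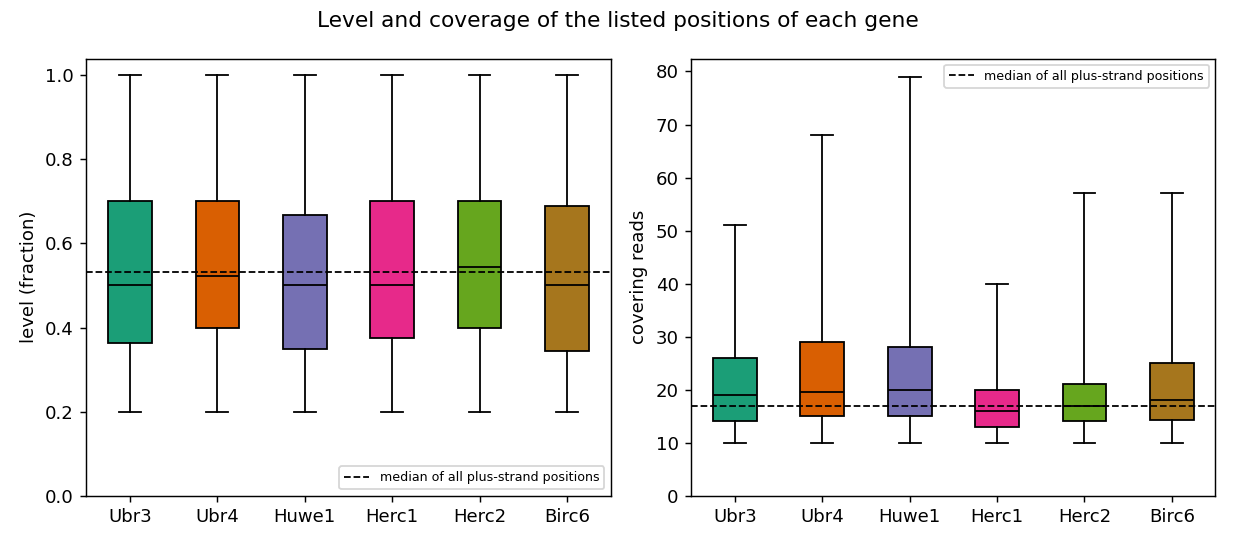
Level (left, fraction) and covering reads (right) of the listed positions of the 6 plus-strand members; boxes show quartiles and median, whiskers the lowest and highest value, and the dashed line the median of all plus-strand positions. The boxes for level overlap around 0.5, and the median coverage lies between 16 reads in Herc1 and 20 in Huwe1.

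A call in both KO replicates was listed for 371 positions of the plus-strand members, or 15.3% (exact interval 13.9 to 16.8), against 14.3% of all plus-strand positions. Ubr4 had 93 (17.5%), Ubr3 34 (17.3%), Huwe1 83 (16.5%), Birc6 52 (15.2%), Herc1 55 (14.1%) and Herc2 54 (11.7%). The highest and the lowest share had exact intervals of 14.4 to 21.1 and 8.94 to 15.0. These overlap, which does not show that the shares are equal, and their difference was not tested. As above, the intervals treat positions as independent, although neighbours share reads. The share was lowest at a coverage of 10 to 14 reads, 11.7% in these members and 8.78% in all plus-strand positions, and Herc1 and Herc2 had the lowest coverage of the 6. With at least 20 covering reads the share was 22.9% in Ubr3, 21.1% in Ubr4, 17.2% in Birc6 and 16.1% in Huwe1. It was 12.7% in Herc1 and 10.4% in Herc2. With at least 30 it was 27.3% of 33 positions in Ubr3, 25% of 132 in Ubr4 and 16.2% of 117 in Huwe1. Birc6 then had 11.8% of 51, Herc1 8.70% of 23 and Herc2 6.25% of 32. Whether coverage accounts for these shares was not tested. The median level of positions called in both was 0.517, and that of positions called in 1 was 0.5. The spread between the replicates that the authors deposited for these positions had a median of 0.05 and a maximum of 0.231, in Huwe1.

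Among positions called in 1 replicate, the highest levels that rested on 20 or more reads used were between 0.759 and 1 in the 6 genes. Huwe1 led with 22 of 22 reads at 151803333 (Wilson interval 0.851 to 1), next to 151803332 with 18 of 20 (0.9); both lie just past the stretch shown above and used under 80% of the covering reads. Herc2 had 23 of 24 reads (0.958, Wilson interval 0.798 to 0.993) at 56231264, 0.536 kb from the end of its span. Herc1 had 19 of 20 at 66466537, Ubr3 21 of 23 at 69971177, Ubr4 33 of 39 at 139463369 and Birc6 23 of 29 at 74697476. Of the 18 positions that this rule named, 3 per gene, 16 used 80% or more of the reads, the range in which 17.2% of checked positions were a C. Restricted to positions under 80% after this was seen, the highest was 13 of 20 reads (0.650) in Ubr4, 7 of 27 (0.259) in Ubr3 and 5 of 20 (0.250) in Birc6. Huwe1 kept the 2 positions above, and Herc1 and Herc2 had none.

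The 2 most deeply covered positions of each plus-strand member had levels between 0.222 and 0.75. Huwe1 had 30 of 65 reads unconverted at 151929466 (0.462, Wilson interval 0.346 to 0.581) and 34 of 61 at 151915704 (0.557, 0.433 to 0.675). These 2 used 82.3% and 81.3% of the covering reads, the range in which 17.2% of checked positions were a C. Birc6 had 31 of 50 at 74623777 (0.620) and 33 of 48 at 74668854 (0.688), and Herc2 27 of 46 at 56231245 (0.587) and 25 of 36 at 56206607 (0.694). The second of each pair was tied in coverage with a lower position, 74668855 in Birc6 (0.435) and 56231219 in Herc2 (0.432). In Ubr4 the deepest position, 139485346, was called in both replicates at the authors' mean level of 0.366, and the next, 139468180, had 9 of 40 reads (0.225). Ubr3 had 4 of 18 at 69979380 and 7 of 27 at 69971156, and Herc1 12 of 16 at 66495917 and 16 of 33 at 66462910, with a level of 0.235 at 66448346, tied with both in coverage. In that order the Herc1 positions used 40%, 82.5% and 85% of the reads. The 2 deepest positions of Ubr3 (0.222 and 0.259) were lower than those of Birc6 and Herc2, tied ones included, which all used 80% or more of the reads, as the Ubr3 positions did not.

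Huwe1 also hosts 3 miRNA genes, of which 1 held listed positions. The 3 positions that carried a second label lay in Mir3113, at 151859582, 151859584 and 151859586, between 20 and 24 nt before its mature 3p sequence. Their levels were 0.5, 0.6 and 0.4, each from 10 reads used, and their reference base was not read here. Host transcript and miRNA precursor share these bases and cannot be told apart. Mirlet7f-2 and Mir98, which encode members of the let-7 family, had 0 listed positions.

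Other genes of the ubiquitin system split by strand as all genes did. Of 50 such genes, all matched to RefSeq, 40 had a position (80%, against 34.2% of all protein-coding genes). The lists were chosen with earlier results of these data known, so nothing is read from that share. Of the 40, 30 were on the plus strand with 33 to 390 positions and 10 on the minus strand with 1 to 9. HECT ligases had positions in 18 of 19 genes, 13 of them on the plus strand with a median of 122. Hectd4, a very large HECT gene, led all lists with 390 (median level 0.534, 2.62 per kb), followed by Ube3b with 209 (0.573). Genes of UBR proteins and the N-degron pathway had positions in 7 of 8, including Ubr7 with 106. Of the other inhibitor of apoptosis genes, Xiap had 100 and Birc5 52, and Birc2 and Birc3 had none. Among partners and substrates, 9 of 12 had positions, among them Trp53 with 182 (median level 0.465) and Neurl4, a partner of Herc2, with 169 (0.615); Nedd4, a HECT ligase, had 180 (0.5). The median over the 30 plus-strand genes was 104 positions and a level of 0.509. Over all plus-strand genes with a position it was 71 positions and a level of 0.533. Ubr3, the lowest of the 6 plus-strand members, had more positions than 28 of the 30. The members were chosen for their counts, so nothing is read from that. Per kb of span Ubr3 had 1.54 positions, against a median of 2.26 over the 30.

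Of 10 genes that mark myeloid cells, the labelled cell type, 9 had positions, where 34.2% of all protein-coding genes had any. Mpo had 217, Itgam 158 and Ctsg 0. Positions were found in 1 of 4 T and NK cell genes (Nkg7), 0 of 3 B cell genes and 0 of 3 erythroid genes. All 4 islet hormone genes had positions, 24 to 228 each. The part of RNA from other cells in the members' values was not tested.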

How the data were processed

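Poly(A) RNA of 2 Tet2 KO and 2 WT libraries was bisulfite-converted and sequenced from a stranded mRNA kit, per the labels. The build is mm10, per the submitters' processing notes; for the aligner and the caller the sources used here name no tool. The deposited covering and unconverted reads are whole numbers without normalization, and where both KO replicates made the call they are a score, the authors' mean rounded to a whole number. The authors' level and its spread are a fraction. The deposited combined p-values were not used. There were 0 columns of other series, and library totals were not available.

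Reads used were recovered as unconverted reads over level, whole for 100% of single calls (tolerance 0.0006), with at least 10 reads. Genes were matched to RefSeq spans, and the reference base was read in 32851 promoter windows and 1005 hairpins, 1-based. Mm10 and GRCm38.p6 share chromosome coordinates. Gene strand is that of the listed positions; RefSeq windows gave it for all members but Mycbp2. Python 3.11.15, pandas 2.3.3 and scipy 1.17.1 were used, and the functions were tested on simulated data. Intervals are at 95% and cover counting error only.

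Members and lists were chosen with earlier results of these data known, so no test was made. Named positions were, per member, the 3 highest at 20 or more reads used, the 2 most covered, and all where there were 10 or fewer; of the other ubiquitin genes, the 5 with the most positions, with further genes named after their values were seen. Planned tests against WT, and densities per codon, could not be made from this table. One gene of the lists is not reported here.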

Additional observations from a re-analysis of the deposited data

How the results depend on the processing

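No paired analysis was possible because the table merges both KO replicates and holds no WT values, and for the same reason no replicate could be left out. The 2425 positions fell to 1074, 390 and 57 at coverage minimums of 20, 30 and 50 reads. They fell to 371 for calls in both replicates, 727 with no neighbour within 10 nt, 355 with 20 or more reads used, and 716 under 80% of reads used, an alternative chosen after the data were examined. In the same order the median density was 0.755, 0.176, 0.00787, 0.297, 0.651, 0.244 and 0.571 per kb. The median level was 0.462 and 0.400 at minimums of 30 and 50 reads and 0.485 with 20 or more reads used. Median coverage was 26, 36 and 57 at the 3 minimums, 31 with 20 or more reads used and 21 under 80% used. The share called in both replicates was 16.9% and 18.2% at minimums of 20 and 30 reads. The share in the last decile was 21.8% at 50 reads, 15.4% for calls in both replicates and 15.8% with 20 or more reads used, and 7.07% lay within 5 kb of the end. The plus-strand share was 96.5% at 50 reads, 100% for calls in both replicates, 99.2% without neighbours and 99.3% under 80% used. These alternatives keep fewer positions by construction; other causes were not tested. Ubr3 had the highest share in the last decile except at minimums of 30 and 50 reads and with 20 or more reads used, where Herc2 had it with 53.1% of 32, 100% of 1 and 37.0% of 46 positions, and Ubr3 had 24.2%, 0% and 16.1%. Ubr4 had the lowest share except at 50 reads, where Ubr3 had 1 position and Herc1 none. Of the plus-strand members, Ubr3 had the fewest positions except at 30 and 50 reads and with 20 or more used, where Herc1 had 23, 0 and 29. Ubr4 had the most except at 20 and 50 reads and with 20 or more used, where Huwe1 had 285, 31 and 108. Density per codon was not run, as no protein sequence was used here.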
